A study of Mus musculus with 26 samples.

Results

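The genes described here are 9 members of the program by which glial cell line-derived neurotrophic factor (GDNF) keeps mouse spermatogonial stem cells self-renewing: Ret, Gfra1, Etv5, Bcl6b, Zbtb16, Egr4, Id4, Lhx1 and Pou3f1. They were chosen by symbol, and every probe annotated to these symbols on an Illumina MouseRef-8 bead array was taken. This gave 9 of 25697 probes, for 8 of the 9 symbols (of 16590 symbols with a probe), and 8 of those 9 probes were detected often enough to be tested. Zbtb16 is named only.

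RNA of 13 mouse lines was hybridised with 2 arrays per line, 26 arrays in all. Every line carries the label OG2, the name of a mouse strain with an Oct4-GFP transgene. The pluripotent lines with a germline past were 4 induced pluripotent clones made from germline stem cells, iPSC[GSC], and 4 pluripotent clones of the kind called gPSC, also from germline stem cells. Of each kind 2 clones came from the neonatal (day 10) line and 2 from the adult (day 40) line of germline stem cells. The other pluripotent lines were 1 embryonic stem cell line (ESC) and 1 line of induced pluripotent cells from fibroblasts, iPSC[MEF], labelled Tet-4F. The cells against which they were set were the 2 parent lines of cultured germline stem cells, GSC[neonatal] and GSC[adult], and 1 culture of embryonic fibroblasts (MEF). Each GSC origin, ESC, iPSC[MEF] and MEF is thus a single line, each clone shares its parent with 3 others, and the age of origin cannot be told apart from the parent line. The arrays of a line are called biological replicates by the labels, with no word on separate cultures, so the line was taken as the replicate.

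GDNF binds the co-receptor GFRA1, which is tethered to the membrane and brings the ligand to the receptor tyrosine kinase RET. RET signals through SRC-family and PI3K-AKT kinases and through RAS and ERK, and in cultured mouse spermatogonia this raises transcription factor genes that include Etv5, Bcl6b, Lhx1, Pou3f1, Id4 and early growth response genes, to which Egr4 belongs by family. Loss or knockdown of several of these reduces stem cell maintenance in the mouse testis. Several members also have roles elsewhere: Etv5 and Pou3f1 are expressed in pluripotent cells and the epiblast, and Ret, Gfra1 and Lhx1 in the developing kidney.

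Levels are log2 signals after background correction and quantile normalisation, and a probe is called detected on an array at a detection p under 0.01. The median background signal was 79.4 to 83.8 on 16 arrays, 87.3 to 89.4 on 8 and 105 to 113 on the 2 MEF arrays, and arrays detected between 9984 and 12081 probes. The 8 raised arrays are replicate 1 of the 4 gPSC clones, ESC, iPSC[MEF] and both GSC lines, so no iPSC[GSC] array is among them. The line gPSC[GSCneonatal]#2 and the line iPSC[MEF] correlated at 0.9971 over the tested probes, the highest of 78 pairs of lines and above the 2 GSC lines (0.9935). Results that depend on gPSC[GSCneonatal]#2 are therefore also given without it. Pluripotency markers stood at a mean of 9.23 to 10.86 in the 8 clones from the germline, against 6.36 to 6.61 in the GSC lines, where Nanog, Sox2, Tdgf1 and Fgf4 were not detected. The mean of 7 measured germ cell markers was 5.39 to 7.04 in those clones and 8.69 to 8.84 in the GSC lines, where all 7 were detected on every array. The mean of 10 measured fibroblast markers ranged from 5.35 to 9.17 in the clones, was 6.46 to 6.85 in the GSC lines and 9.88 in MEF. Of 7 measured testis somatic markers, with a mean of 5.31 to 5.81 in the clones and 5.46 to 5.47 in the GSC lines, 2 were detected on every GSC array and Inha, Cyp11a1 and Cd34 on none. Of these 7, 2 were lower in the clones than in the GSC lines, 2 higher and 3 neither (limma adjusted p under 0.05). Their median difference was 0.20. Wt1, a gene of Sertoli cells among others, was lower in every clone: 4.59 to 5.40 in iPSC[GSC] and 4.52 to 6.17 in gPSC. In the GSC lines Wt1 stood at 8.78 to 9.20. Acta2 went the other way, at 7.79 to 9.08, 7.10 to 9.20 and 5.99 to 6.25 in that order. Sox9 was detected on 1 of 4 GSC arrays and on no clone array. The part of testis somatic cells in the results was not tested.

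Set against the 2 GSC lines, the 8 pluripotent clones made from them had less RNA of most members and more of 1. Of the 8 tested probes, 6 were lower (Egr4, Ret, Lhx1, Bcl6b, Id4 and Gfra1), 1 was higher (Etv5) and 1 did not pass (Pou3f1). A probe is called here at a limma adjusted p under 0.05 over all 14517 tested probes. In this comparison 49.6% of all tested probes were called, 26.8% lower and 22.8% higher, so a call by itself sets no member apart. The size of the difference varied widely: by fitted difference Egr4 ranked first from the most lowered of the 14517 probes and Etv5 474th from the most raised, where probes at background on one side have only a bound. Ret, Gfra1 and Bcl6b passed the detection filter only through the GSC arrays, the side on which they are high, so for these 3 the call describes what the filter let in and the count supports nothing further. The block fit uses 1 correlation between the arrays of a line for all probes, and on simulated data it called too many unchanged probes, so its p-values are too small. With limma fitted to 13 line means instead, 6 of the 8 members were called, 5 lower and 1 higher. Ret, Egr4, Lhx1, Bcl6b, Gfra1 and Etv5 each had a limma adjusted p of at most 0.00428, and Id4 was not called. The share of all probes called in that fit is not given, so this count sets no member apart either. The median difference over the 8 members was −1.09, and over all tested probes 0. The median of the members includes Ret, Gfra1 and Bcl6b, so it is partly set by the filter and supports nothing further. These are bulk RNA measurements, in which fewer cells that express a gene and less RNA per cell cannot be told apart.

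**Figure D1:**
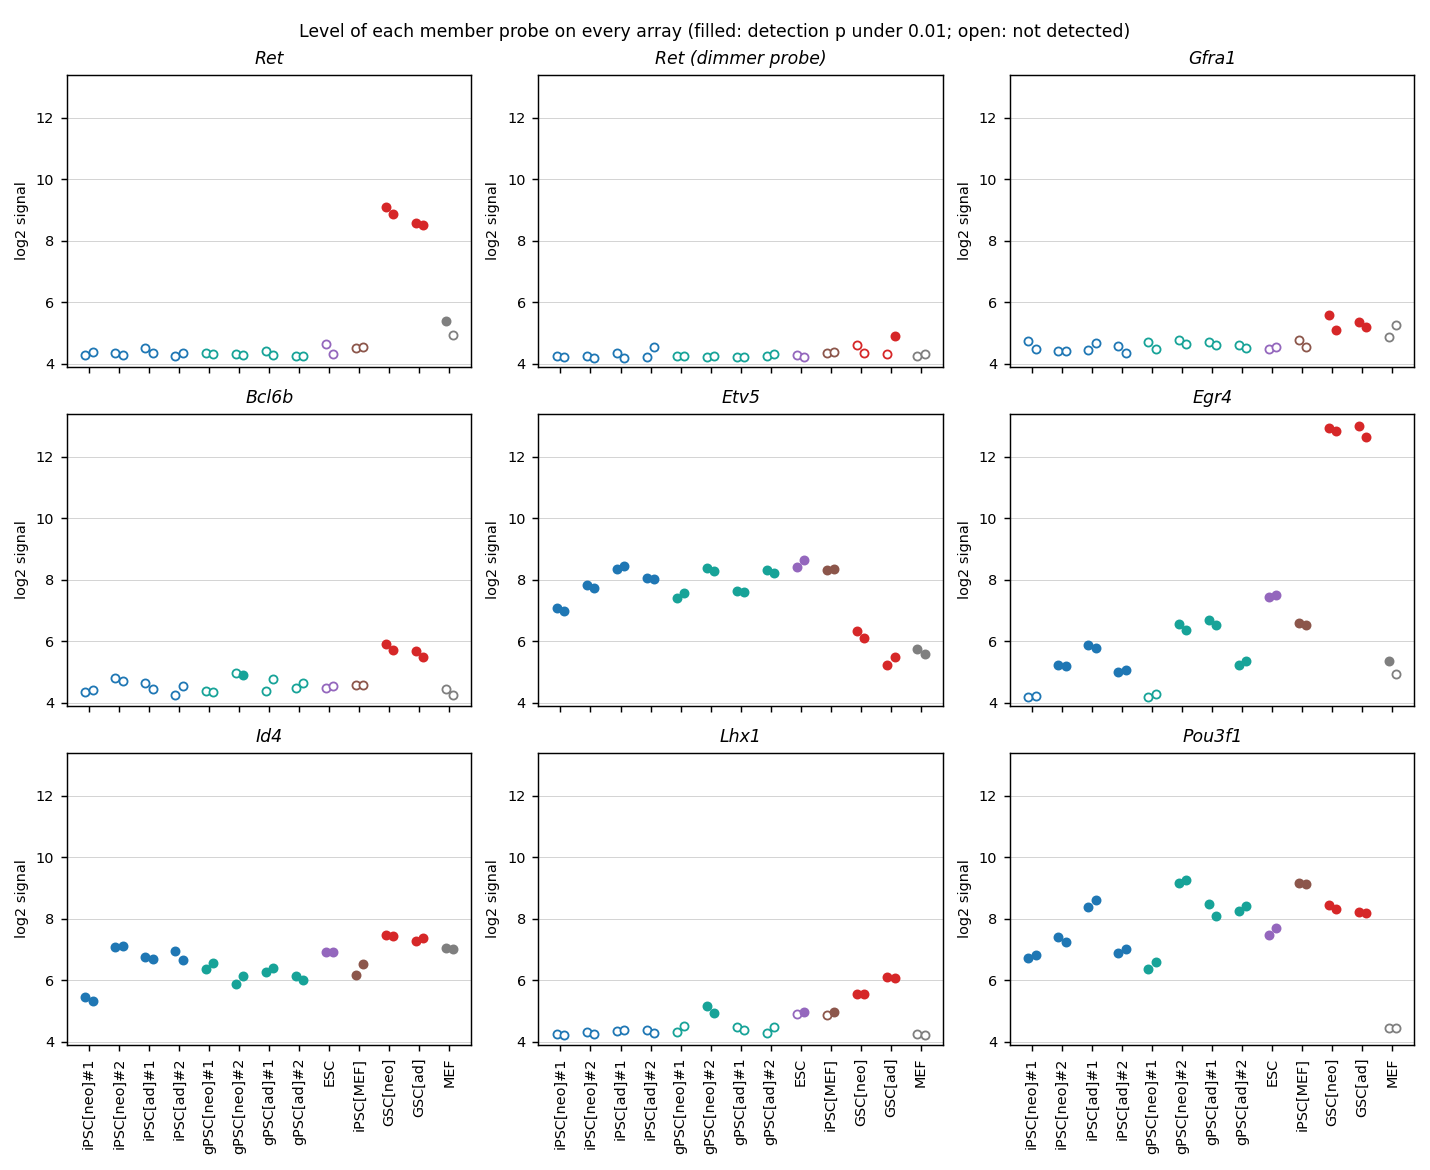
Level of every member probe on each of the 26 arrays, in log2 signal, with the 13 lines along the horizontal axis and 1 panel per probe; filled points are detected (detection p under 0.01), open points are not. The 4 GSC arrays stand apart for Ret (8.50 to 9.10) and Egr4 (12.63 to 13), while Etv5 is higher in all 20 pluripotent arrays than in GSC or MEF.

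Both receptor genes were at background in the pluripotent cells. Ret (chr6:118151748-118197744 in GRCm38.p6, as are all gene positions below), which encodes the signalling kinase, lay between 4.23 and 4.52 with a median of 4.32 on the 16 arrays of GSC-derived clones, against 9.10, 8.88, 8.58 and 8.50 on the 4 GSC arrays, GSC[neonatal] first here and below. No clone array detected it and every GSC array did. The fitted difference was −4.44 ± 0.20 (log2, SE; limma adjusted p = 7.47e-15), from means of 4.32 ± 0.05 in clones (SD, n = 8) and 8.76 ± 0.32 in GSC lines (SD, n = 2). Because one side is at background, the level is stated as at least 14-fold lower. The 8 clones spanned only 4.25 to 4.42, no wider than the arrays of 1 clone, so residual Ret was below what the array resolves in each of them. ESC had 4.65 and 4.31 and iPSC[MEF] 4.52 and 4.55, also undetected. A second, dimmer Ret probe was detected on 1 array of GSC[adult] alone and is not counted in these tests.

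Gfra1 (chr19:58235581-58455946), which encodes the GDNF-binding co-receptor, lay between 4.35 and 4.78 with a median of 4.59 on the 16 clone arrays, all undetected. The GSC arrays had 5.58, 5.08, 5.34 and 5.20, all detected. The groups did not overlap, but the GSC signal itself stood just above the detection limit. The probe was detected on those 4 arrays alone, so it entered the test only through the group where it is high. The difference was −0.73 ± 0.24 (limma adjusted p = 0.0119), or at least 1.27-fold lower. This was the least secure of the calls: without GSC[neonatal] the adjusted p of Gfra1 in limma was 0.0518, without GSC[adult] 0.0742, and on the low-background arrays alone 0.0506. The undetected MEF arrays had Gfra1 at 4.86 and 5.26, which overlap the GSC values.

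Bcl6b (chr11:70224127-70229798), a BTB zinc finger repressor gene that responds to GDNF in mouse GSC cultures, lay between 4.24 and 4.96 with a median of 4.51 in the clones and was detected on 1 of 16 arrays, a gPSC[GSCneonatal]#2 array. In the GSC lines it had 5.92, 5.72, 5.67 and 5.50. The lowest GSC array exceeded the highest clone array. Bcl6b was lower by −1.14 ± 0.21 in the clones (limma adjusted p = 7.44e-05). Lhx1 (chr11:84517975-84525534), a LIM homeobox gene, lay between 4.21 and 5.15 with a median of 4.36 in the clones, against 5.55, 5.54, 6.10 and 6.09 in the GSC lines. Its groups were separate too, and the 2 detected clone arrays were again those of gPSC[GSCneonatal]#2. Lhx1 differed by −1.38 ± 0.16 (limma adjusted p = 1.36e-07), and on the raised-background arrays alone by −1.26 ± 0.30 (limma adjusted p = 0.0516).

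Egr4 (chr6:85511121-85513589), a zinc finger gene of the early growth response family, showed the widest gap. It lay between 4.18 and 6.70 with a median of 5.21 on the clone arrays, against 12.92, 12.84, 13 and 12.63 on the GSC arrays. Every GSC array exceeded every clone array by more than the whole range among clones. The difference was −7.49 ± 0.38 (limma adjusted p = 9.64e-14), which is 180-fold lower in the clones, from means of 5.36 ± 0.91 (SD, n = 8) and 12.85 ± 0.05 (SD, n = 2). This fold includes 2 clones at background, whose values are set by the background. In the other 6 clones Egr4 minus the parent line lay between −7.79 and −6.20. Over 52 alternative settings the difference between clones and GSC lines ran between −8.76 and −5.81 and was called in each. The probe was detected on 12 of 16 clone arrays, those of 6 clones. It was also detected in ESC (7.44 and 7.51) and iPSC[MEF] (6.60 and 6.53), which were not made from GSC. Detection in a clone therefore does not show a residue of the GSC level. The clones iPSC[GSCneonatal]#1 (4.18 and 4.21) and gPSC[GSCneonatal]#1 (4.20 and 4.29) were at background. Those 2 clones also had the highest mean of germ cell markers, 7.04 and 6.41, against 5.39 to 5.75 in the other 6 clones. What part this has in the Egr4 level was not tested. The RefSeq promoter of Egr4 (assembly GRCm38.p6, 250 bases before and 50 after the start), shown because this gene carries the widest gap, reads in lower case since none of the 8 motifs searched matched it. The promoter has 30 CpG dinucleotides, against a median of 7 over 32841 mouse promoters of the same length.
Egr4 promoter, chr6:85513540-85513839, minus strand: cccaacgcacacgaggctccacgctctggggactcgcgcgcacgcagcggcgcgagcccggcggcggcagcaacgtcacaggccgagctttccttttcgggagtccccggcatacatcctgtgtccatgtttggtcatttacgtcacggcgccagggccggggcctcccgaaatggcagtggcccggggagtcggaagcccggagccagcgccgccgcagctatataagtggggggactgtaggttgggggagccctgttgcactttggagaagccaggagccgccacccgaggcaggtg

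Etv5 (chr16:22381313-22439570), an ETS factor gene that is needed for stem cell maintenance in the mouse testis and is also expressed in pluripotent cells, was the exception. It lay between 6.98 and 8.46 with a median of 7.92 on the clone arrays, against 6.34, 6.12, 5.22 and 5.47 on the GSC arrays. All 20 arrays were detected and the groups did not overlap. Etv5 was 4.23-fold higher in the clones (2.08 ± 0.23 on the log2 scale, limma adjusted p = 5.67e-08), with means of 7.87 ± 0.48 (SD, n = 8) and 5.79 ± 0.62 (SD, n = 2). ESC had 8.40 and 8.65 and iPSC[MEF] 8.30 and 8.36, above most clones, while MEF had 5.76 and 5.57 and overlapped the GSC lines. Its upstream promoter in the RefSeq table, shown as that of the only member that rose, holds 1 E-box (CAGCTG) and 3 CCAAT boxes in capitals, and 37 CpG dinucleotides. An E-box of these letters is in 16.3% and a CCAAT box in 37.4% of the 32841 promoters, on either strand.
Etv5 promoter, chr16:22439521-22439820, minus strand: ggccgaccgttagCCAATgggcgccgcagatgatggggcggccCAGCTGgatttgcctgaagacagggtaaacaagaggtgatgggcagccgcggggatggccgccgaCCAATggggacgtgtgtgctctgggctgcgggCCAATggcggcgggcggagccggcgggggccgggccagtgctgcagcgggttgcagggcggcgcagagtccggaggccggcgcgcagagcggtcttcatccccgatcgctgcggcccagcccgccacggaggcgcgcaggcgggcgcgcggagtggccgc

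Id4 (chr13:48261116-48266028), which encodes a helix-loop-helix protein that binds E proteins and marks the most stem-like spermatogonia in mouse, stood lower in the clones. It lay between 5.33 and 7.11 with a median of 6.39 on the clone arrays, against 7.48, 7.45, 7.28 and 7.38 on the GSC arrays, and was detected on all of them. The closest clone, iPSC[GSCneonatal]#2, stood 0.37 below its parent line, and the farthest, iPSC[GSCneonatal]#1, 2.07 below. The difference of −1.03 ± 0.27 (limma adjusted p = 0.00295), 2.05-fold lower, had an adjusted p of 0.0837 when limma was fitted to line means. ESC had 6.91 and 6.91 and iPSC[MEF] 6.19 and 6.54, within the range of the clones though not made from GSC. MEF had 7.04 and 7.01, nearly as much as the GSC lines. The 2 clones at the ends of the Id4 range, iPSC[GSCneonatal]#1 and #2, had fibroblast marker means of 5.35 and 7.26, and gPSC[GSCadult]#2, with the highest fibroblast mean of 9.17, had Id4 at 6.14 and 6. The part of fibroblasts in the Id4 level was not tested. The Id4 promoter is shown because it alone among the members' promoters held matches to the EGR motif (GCGNGGGCG), which is in 5.55% of all promoters. Its capitals mark 2 EGR matches, 2 CCAAT boxes and 1 GC box (GGGGCGGGG), all read here on the opposite strand, and it holds 39 CpG dinucleotides.
Id4 promoter, chr13:48260866-48261165, plus strand: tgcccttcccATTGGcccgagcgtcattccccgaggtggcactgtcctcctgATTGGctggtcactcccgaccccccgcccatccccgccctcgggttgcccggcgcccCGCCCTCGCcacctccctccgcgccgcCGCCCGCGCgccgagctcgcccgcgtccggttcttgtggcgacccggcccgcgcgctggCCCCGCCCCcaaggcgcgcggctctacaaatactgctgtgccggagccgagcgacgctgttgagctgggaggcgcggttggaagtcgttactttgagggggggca

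The 8 motifs searched on both strands were ETS (CCGGAAGT), EGR, octamer (ATGCAAAT), E-box, cyclic AMP response element (TGACGTCA), CCAAT box, GC box and TATA box (TATAAA). No ETS, octamer, cyclic AMP or TATA match was found in the 6 promoters of the 5 members that the table holds (Gfra1, Etv5, Egr4, Id4 and Lhx1). A match is a run of letters and says nothing on binding.

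Pou3f1 (chr4:124657646-124660655), a POU domain gene also known as Oct6 that is active in the primed epiblast, did not separate the groups. It lay between 6.37 and 9.26 with a median of 7.74 on the clone arrays, against 8.46, 8.33, 8.23 and 8.19 on the GSC arrays. Clones lay on both sides of the GSC values. The difference was −0.57 ± 0.41 (limma adjusted p = 0.269). This rested on gPSC[GSCneonatal]#2, the highest clone at 9.22: without it Pou3f1 was lower by −0.91 ± 0.27 and passed (limma adjusted p = 0.00701), and without both it and iPSC[MEF] the adjusted p in limma was 0.00864. Leaving out gPSC[GSCneonatal]#2 narrowed the spread shared by all groups and left the lowest clone, gPSC[GSCneonatal]#1, alone for its cell type. The pass by itself therefore does not show less Pou3f1 in the clones. The mean of 6 measured primed epiblast and neural markers was 6.57 to 7.77 in the clones and 5.98 to 6.15 in the GSC lines. It was highest in gPSC[GSCneonatal]#2 and lowest in gPSC[GSCneonatal]#1, the highest and lowest clones for Pou3f1 (9.22 and 6.49). What part this has in the Pou3f1 level was not tested.

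**Figure D2:**
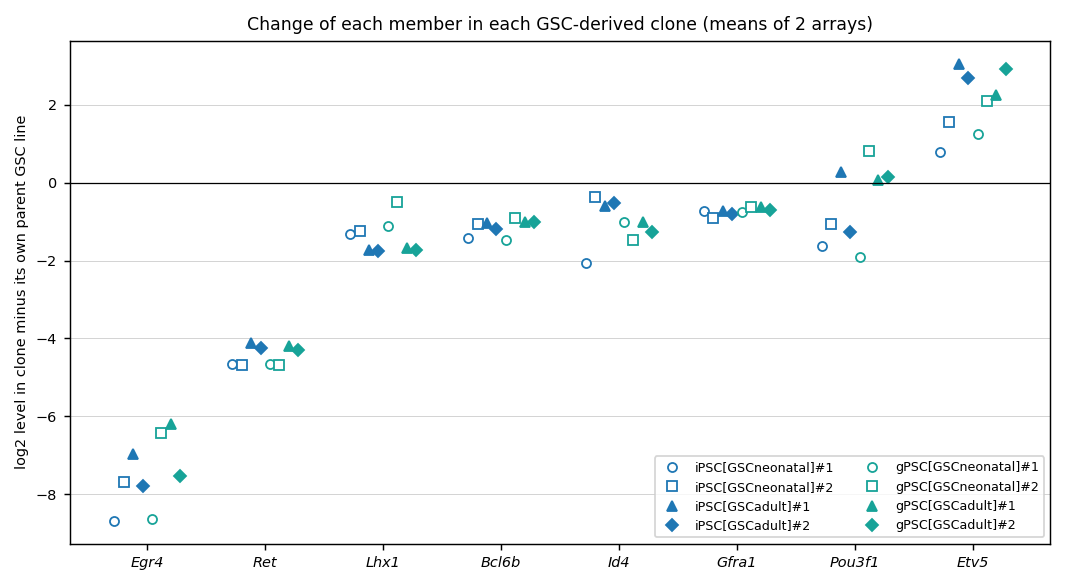
Level of each tested member in each of the 8 GSC-derived clones minus that of its own parent GSC line (vertical axis, log2, means of 2 arrays), with 1 symbol per clone. Ret in every clone, and Egr4 in iPSC[GSCneonatal]#1 and gPSC[GSCneonatal]#1, were at background, so their points are set by the background. In the other 6 clones Egr4 lay between −7.79 and −6.20, while Etv5 was positive in all clones (0.79 to 3.06) and Pou3f1 fell on both sides of 0.

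The same 7 members were called in both kinds of clone with the settings used here (Gfra1 and Id4 were lost under some alternatives in both, and Lhx1 in gPSC). In iPSC[GSC] clones against GSC lines 7 of 8 members were called, 6 lower and 1 higher, where 47.2% of all probes were called, 25.3% lower and 22% higher. In gPSC clones against GSC lines it was again 7 of 8, 6 lower and 1 higher, with 45.4% of all probes called, 25% lower and 20.4% higher. The comparisons share the GSC arrays, so their likeness is partly built in. Ret, Gfra1 and Bcl6b passed the detection filter only through those arrays, so their calls describe what the filter let in. Egr4 differed by −7.79 ± 0.42 in iPSC[GSC] and −7.20 ± 0.42 in gPSC, Ret by −4.43 ± 0.22 and −4.46 ± 0.22, and Etv5 by 2.02 ± 0.25 and 2.14 ± 0.25. Lhx1 was not detected in any iPSC[GSC] array (at least 1.93-fold lower) and differed by −1.25 ± 0.18 in gPSC. Bcl6b was not detected in any iPSC[GSC] array either (at least 1.77-fold lower) and differed by −1.10 ± 0.23 in gPSC. Id4 differed by −0.89 ± 0.30 in iPSC[GSC], a call that did not hold without iPSC[GSCneonatal]#1 (−0.47 ± 0.23, limma adjusted p = 0.113), and by −1.18 ± 0.30 in gPSC. Gfra1 was at least 1.34-fold lower in iPSC[GSC] (limma adjusted p = 0.0139) and at least 1.20-fold lower in gPSC (limma adjusted p = 0.0355). The gPSC call of Gfra1 held in 43 of 52 alternatives and was lost with an offset of 50, without background correction, without quantile normalisation, with the authors' matrix, on the low-background arrays alone, without replicate 1 of either GSC line and without either GSC line, with adjusted p-values of up to 0.127 in limma. Pou3f1 differed by −0.92 ± 0.45 in iPSC[GSC] and −0.22 ± 0.45 in gPSC and passed in neither (limma adjusted p = 0.0996 and 0.731). Without gPSC[GSCneonatal]#2 Pou3f1 passed in both, at −0.92 ± 0.29 in iPSC[GSC] (limma adjusted p = 0.011) and −0.90 ± 0.31 in gPSC (limma adjusted p = 0.0213). That clone is not an iPSC[GSC] clone, so there the difference stayed and only the SE fell, through the spread shared by all groups. In gPSC the lowest clone for Pou3f1, gPSC[GSCneonatal]#1, then stood alone for its cell type. Without gPSC[GSCneonatal]#1 Pou3f1 stood at 0.46 ± 0.31 in gPSC (limma adjusted p = 0.234) and passed in iPSC[GSC] (limma adjusted p = 0.00996), as it did there without iPSC[GSCadult]#1 (−1.30 ± 0.46, limma adjusted p = 0.0253).

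Set directly against each other, the 4 iPSC[GSC] and the 4 gPSC clones differed in none of the 8 members (limma on clone means, 0 called, 0 at an unadjusted p under 0.05). Over all 14517 probes 0% were called. Egr4 averaged 5.06 ± 0.67 in iPSC[GSC] and 5.65 ± 1.11 in gPSC (SD, n = 4 each), a difference of −0.59 ± 0.58 (limma adjusted p = 0.776). Pou3f1 averaged 7.38 ± 0.77 and 8.08 ± 1.15 in the same order, a difference of −0.70 ± 0.63 (limma adjusted p = 0.763). Etv5 differed by −0.11 ± 0.28 and Id4 by 0.29 ± 0.36, and their clones overlapped.

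ESC and iPSC[MEF], which never were germline stem cells in culture, shared the direction of 7 members against the GSC lines, all but Pou3f1. The clones were set against the same GSC arrays, so this likeness is partly built in. The share of all probes with a common direction was not counted. In ESC and iPSC[MEF] 5 of 8 members were called, 4 lower and 1 higher, where 40.1% of all probes were called, 21.9% lower and 18.3% higher. Among the 4 lower, Ret and Bcl6b passed the detection filter only through the GSC arrays. Ret was at least 13.8-fold lower, Bcl6b at least 1.65-fold lower, Egr4 differed by −5.83 ± 0.49 (56.8-fold lower) and Lhx1 by −0.89 ± 0.20, and Etv5 was 6.23-fold higher (2.64 ± 0.29). The limma adjusted p-values of these 5 were at most 0.00105. Gfra1 (−0.72 ± 0.30) and Id4 (−0.76 ± 0.35) missed the threshold, with limma adjusted p = 0.0576 and 0.0841, and Pou3f1 stood at 0.06 ± 0.52. The Lhx1 call was lost without GSC[adult] (−0.62 ± 0.26, limma adjusted p = 0.0726).

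**Figure D3:**
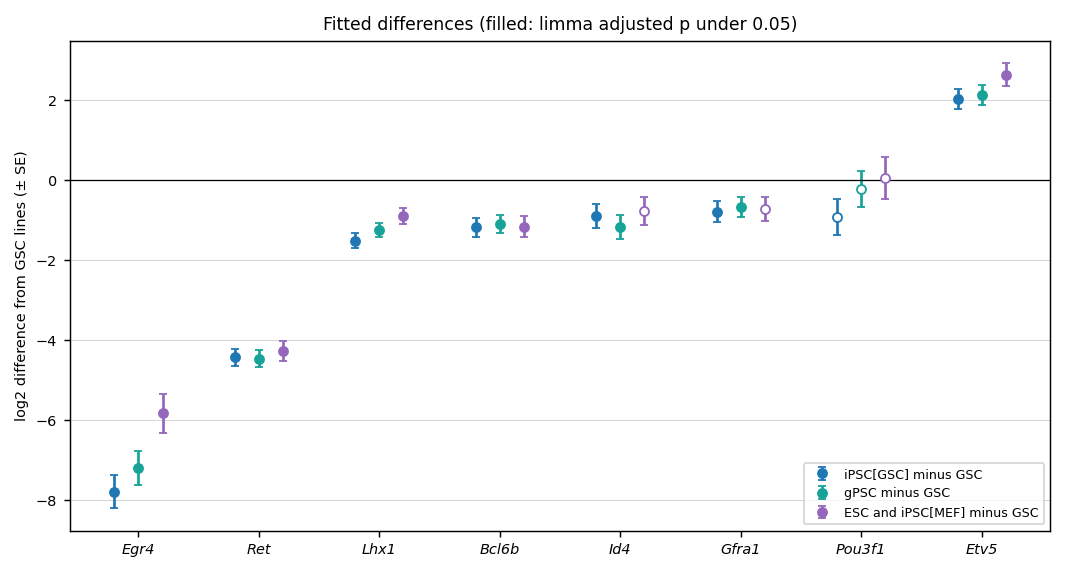
Fitted log2 differences from the GSC lines, with SE bars, for iPSC[GSC] (blue), gPSC (green) and ESC with iPSC[MEF] (purple); filled points passed the limma test at an adjusted p under 0.05. The direction is shared for 7 members, which is partly built in, since all comparisons use the same GSC arrays. Egr4 is less lowered in ESC with iPSC[MEF] (−5.83) than in iPSC[GSC] (−7.79) and gPSC (−7.20).

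Whether the clones kept more of the program than pluripotent cells without a germline past was asked by setting the 8 clones against ESC and iPSC[MEF]. limma called 0 of 8 members, with 3 at an unadjusted p under 0.05 (Egr4, Lhx1 and Etv5), and 0.158% of all probes. No member was higher in the clones beyond that threshold. Egr4 lay between 4.18 and 6.70 in the clones, against 7.44 and 7.51 in ESC and 6.60 and 6.53 in iPSC[MEF]. All clones but gPSC[GSCadult]#1, at 6.62, were below both lines by line means. The difference was −1.66 ± 0.38 (limma adjusted p = 0.0868), that is, towards less Egr4 in the germline clones. Without gPSC[GSCneonatal]#2 it was −1.94 ± 0.29 (limma adjusted p = 0.00138), without gPSC[GSCadult]#1 it was −1.83 ± 0.36 (limma adjusted p = 0.0183), and without both gPSC[GSCneonatal]#2 and iPSC[MEF], which leaves ESC alone on the other side, it was −2.39 (limma adjusted p = 0.00248). Lhx1 differed by −0.49 ± 0.16 (limma adjusted p = 0.526), and without gPSC[GSCneonatal]#2 by −0.57 ± 0.13 (limma adjusted p = 0.0465). Etv5 differed by −0.56 ± 0.23, Pou3f1 by −0.63 ± 0.41 and Id4 by −0.27 ± 0.27, each with a limma adjusted p of 1.

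Clones differed in level by more than the 2 arrays of a clone did for 6 members, as a description: those arrays may share a culture, so their spread can be mostly technical. Egr4 spread over 2.42 log2 units among clones, with an SD of 0.91 between clones and 0.08 between the arrays of a clone. Pou3f1 spread over 2.73 units (SD 0.98 between and 0.14 within clones), Id4 over 1.70 (0.54 and 0.12), Etv5 over 1.38 (0.48 and 0.07) and Lhx1 over 0.82 (0.26 and 0.09), the last through gPSC[GSCneonatal]#2 at 5.05. Bcl6b spread over 0.56 units, with SDs close to each other (0.19 between and 0.14 within clones). Ret and Gfra1 varied no more between clones (SD 0.05 and 0.10) than within them (0.07 and 0.13). As a description over 8 clones, which share 2 parents and were normalised together, Egr4 and Pou3f1 levels correlated at a Pearson r of 0.88 (Spearman rho 0.83), Pou3f1 and Etv5 at 0.72 (0.86), Egr4 and Etv5 at 0.58 (0.60) and Egr4 and Id4 at 0.15 (−0.02). Without gPSC[GSCneonatal]#2 these r were, in the same order, 0.84, 0.66, 0.48 and 0.33. Without the 2 clones farthest from the median of the first gene named they were 0.88, 0.63, 0.92 and 0.56; the last 2 pairs moved most. iPSC[GSCneonatal]#1 and gPSC[GSCneonatal]#1 were the lowest clones for Egr4, Pou3f1 and Etv5 alike.

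**Figure D4:**
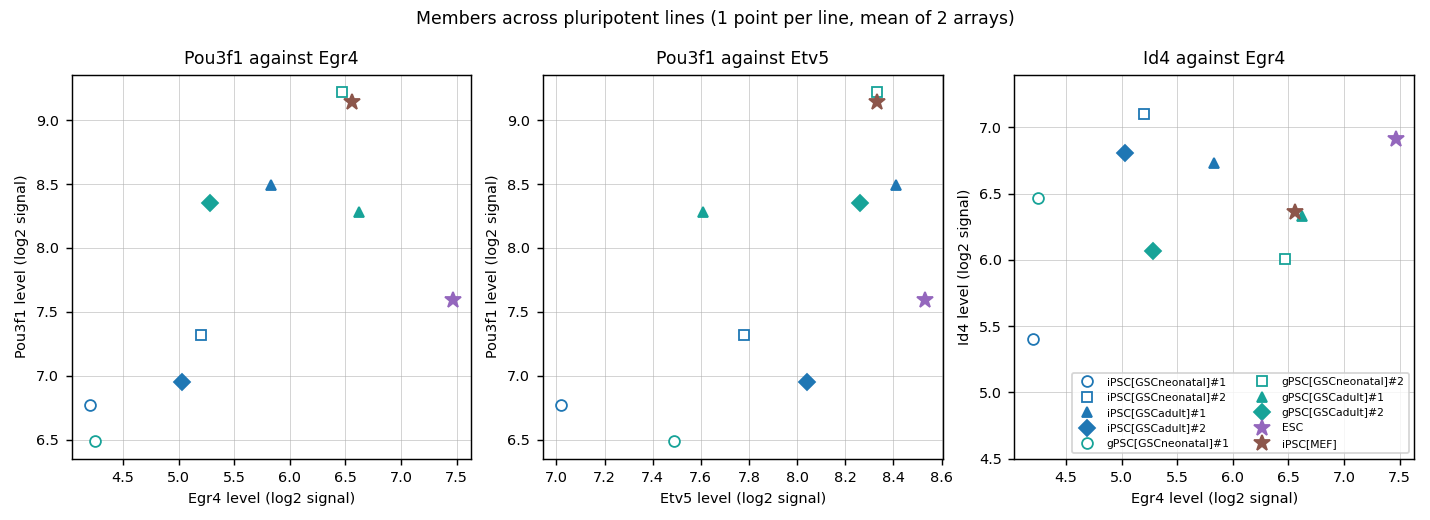
Levels of pairs of members in the 10 pluripotent lines (log2 signal, 1 point per line, mean of 2 arrays): Pou3f1 against Egr4, Pou3f1 against Etv5, and Id4 against Egr4. iPSC[GSCneonatal]#1 and gPSC[GSCneonatal]#1 lie lowest for Egr4 and Pou3f1, gPSC[GSCneonatal]#2 lies beside iPSC[MEF], and Id4 and Egr4 show no steady relation (r = 0.15 over 8 clones).

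Origin from an adult or a neonatal line made no difference that passed. Of the 8 members 0 were called between 4 adult-origin and 4 neonatal-origin clones (0 at an unadjusted p under 0.05 in limma, and 0% of all probes called). Egr4 was detected on all 8 adult-origin and on 4 of 8 neonatal-origin arrays, with means of 5.69 and 5.03 and a difference of 0.66 ± 0.58 (limma adjusted p = 0.767). Etv5 averaged 8.08 and 7.66 (0.42 ± 0.28, limma adjusted p = 0.75), Pou3f1 8.02 and 7.45 (0.56 ± 0.63) and Id4 6.49 and 6.24 (0.25 ± 0.36), adult-origin clones first. The parent lines are 1 line each, so limma sets their difference against the spread among lines of the other types, which assumes that GSC lines vary alike. It called 0 of 8 members, 1 at an unadjusted p under 0.05, and 0.0138% of all probes, which does not show that the parents are alike. Etv5 was 5.35 in GSC[adult] and 6.23 in GSC[neonatal] (−0.88 ± 0.41, limma adjusted p = 1), Lhx1 6.10 and 5.55 (0.55 ± 0.29) and Ret 8.54 and 8.99 (−0.45 ± 0.36). The arrays of the 2 parents overlapped for Egr4 and Gfra1 and stood apart for the other 6 members. With 2 arrays a line, arrays often stand apart without a difference, and the share over all probes was not counted. The separation therefore does not show a difference between the parents.

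The change from the parent line was then compared between origins. Etv5 stood 2.26 to 3.06 above the parent in the 4 adult-origin clones and 0.79 to 2.10 above it in the 4 neonatal-origin clones. These ranges do not overlap, but all clones of an origin are set against the same parent. The interaction was 1.31 ± 0.46 for Etv5 and −0.67 ± 0.32 for Lhx1, with unadjusted p-values of 0.00887 and 0.0482 and limma adjusted p = 1 for both. limma called 0 of 8 members, 2 of them at an unadjusted p under 0.05, and 0% of all probes.

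MEF and iPSC[MEF] are 1 line each, so the spread in the next comparisons is taken from the lines of the other types. In GSC lines against MEF 5 of 8 members were higher and 0 lower, where 45.3% of all probes were called, 24.9% higher and 20.4% lower. Of the 5, Ret and Bcl6b passed the detection filter only through the GSC arrays, so their calls describe what the filter let in. Egr4 was 209-fold higher (7.71 ± 0.60, limma adjusted p = 3.81e-10) and Ret 12.2-fold higher (3.61 ± 0.31, limma adjusted p = 2.17e-09), each detected on 1 of 2 MEF arrays. Pou3f1 was at least 7.83-fold higher, Lhx1 at least 1.40-fold and Bcl6b at least 1.29-fold, all undetected in MEF. Etv5 (0.12 ± 0.35), Gfra1 (0.24 ± 0.36) and Id4 (0.38 ± 0.42) did not pass. In iPSC[MEF] against MEF 2 of 8 members were higher and 0 lower, with 31.4% of all probes called, 16.1% higher and 15.3% lower. They were Pou3f1, at 9.16 and 9.12 in iPSC[MEF] and 4.45 and 4.44 in MEF (at least 14-fold higher, limma adjusted p = 3.23e-05), and Etv5, at 8.30 and 8.36 in iPSC[MEF] and 5.76 and 5.57 in MEF (6.33-fold higher, limma adjusted p = 2.53e-05). Egr4 (1.42 ± 0.69, limma adjusted p = 0.125), Lhx1 (0.68 ± 0.29, limma adjusted p = 0.0764), Ret (−0.62 ± 0.36) and Id4 (−0.66 ± 0.49) did not pass. Etv5 was thus higher in pluripotent cells than in either starting cell type.

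Ordered by mean level over the 6 kinds of cell, GSC came first for Ret, Gfra1, Bcl6b, Egr4, Id4 and Lhx1, with MEF next for Ret, Gfra1 and Id4 and ESC next for Egr4 and Lhx1. Among these members the arrays of GSC overlapped those of the kind next in order for Gfra1 only. The share of all probes that come first or stand apart in GSC was not counted, so this order is only a description. For Etv5 the order was ESC, iPSC[MEF], gPSC, iPSC[GSC], GSC and MEF, with overlapping arrays between iPSC[MEF] and gPSC, between gPSC and iPSC[GSC], and between GSC and MEF. For Pou3f1 it was iPSC[MEF], GSC, gPSC, ESC, iPSC[GSC] and MEF, and only the first and the last stood clear of their neighbour.

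Other genes of the pathway were counted from lists, by gene, in GSC-derived clones against GSC lines, where 51.9% of 9840 genes were called, 28% lower and 23.8% higher. Of 6 tested genes of the GDNF ligand and receptor family (10 listed), 3 were lower and 1 higher, with a median difference of −0.31. The 3 lower genes passed the detection filter only through the GSC arrays. Their calls therefore describe what the filter let in, and the median is partly set by it. The co-receptor genes Gfra3 (at least 1.56-fold lower) and Gfra4 (at least 1.07-fold lower) and the ligand gene Nrtn (at least 1.20-fold lower) were undetected in all 16 clone arrays, and the ligand gene Artn was higher (0.87 ± 0.24, limma adjusted p = 0.0039). Gdnf itself was not detected in the GSC lines and was at least 2.54-fold lower there than in MEF (limma adjusted p = 0.000144). Of 18 tested RET adaptors and kinases (33 listed), 2 were lower and 5 higher, with a median of 0.20. Gab1, a docking protein gene, was 2.12 ± 0.15 higher, Shc1 0.48 ± 0.15 and Nras 0.41 ± 0.14. The docking protein gene Dok4 (−0.98 ± 0.19) and the ERK-activating kinase gene Map2k2 (−0.93 ± 0.19) were lower. Without either GSC line 3 in place of 5 were higher.

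Genes that ERK signalling induces or that damp it split in both directions. Of 16 tested (21 listed), 4 were lower and 7 higher, with a median of 0.60, and without GSC[adult] 4 were higher. The immediate-early genes Fos (−2.49 ± 0.36), Egr2 (−1.95 ± 0.24) and Egr1 (−1.50 ± 0.16) and the cyclin gene Ccnd2 (−3.29 ± 0.51) were lower. The ERK phosphatase gene Dusp4 was at least 3.11-fold higher, and the cyclin gene Ccnd3 (1.17 ± 0.18) and the ETS genes Etv4 (1.29 ± 0.28) and Etv1 (at least 1.58-fold) were higher as well. Etv4 lost its call without GSC[adult] (0.70 ± 0.36, limma adjusted p = 0.147) and Etv1 with line means (limma adjusted p = 0.0631).

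Other genes of undifferentiated spermatogonia were mostly lower. Of 29 tested (36 listed), 17 were lower and 5 higher, with a median of −1.47, and without GSC[neonatal] 3 were higher. The germline transcription factor gene Sohlh1 (−6.01 ± 0.24), the RNA-binding protein genes Dazl (−4.56 ± 0.72) and Nanos3 (−3.84 ± 0.25) and the Piwi gene Piwil2 (−3.75 ± 0.33) were lower by the largest fitted differences. Nanos2 (at least 8.98-fold lower), Neurog3 (at least 6.79-fold) and Piwil4 (at least 6.58-fold), named after their values were seen, were undetected in the clones, so their order against these is unknown. Those higher included Utf1 (4.81 ± 0.20) and Sall4 (0.48 ± 0.16), nuclear factor genes also active in pluripotent cells, the uridine phosphorylase gene Upp1 (3.30 ± 0.32) and the integrin gene Itga6 (1.12 ± 0.22). Of 11 tested paralogs of the members (18 listed), 5 were lower and 3 higher, with a median of −0.57, and without GSC[adult] 3 were lower. Id2 was at least 7.67-fold higher while Id4 was lower, and Bcl6 was lower (−1.45) as was Bcl6b. Against ESC and iPSC[MEF], where 0.173% of genes were called and 0.0915% were lower, the 5 lists together held 1 call, the growth factor receptor adaptor gene Grb10. It was lower in the GSC-derived clones, at 7.03 ± 0.80 (SD, n = 8), against 8.89 ± 0.16 in ESC and iPSC[MEF] (SD, n = 2), with a difference of −1.86 ± 0.27 (limma adjusted p = 0.000831). Without ESC the adjusted p of Grb10 in limma was 0.163, and with line means 1.

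**Figure D5:**
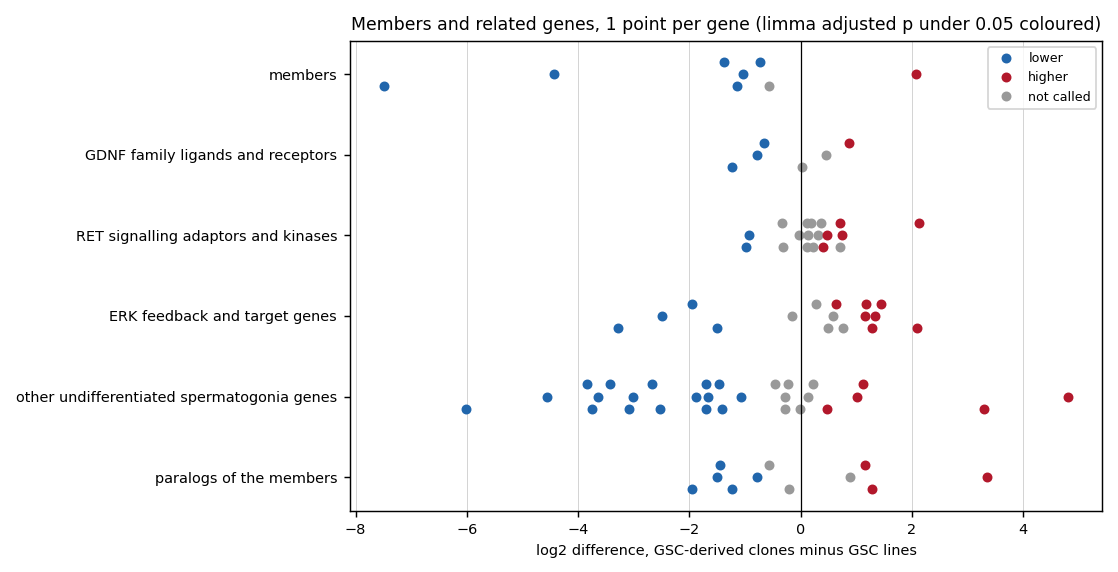
Log2 difference between GSC-derived clones and GSC lines for each tested gene (1 point per gene) of the members and 5 related lists; blue points were lower and red points higher at a limma adjusted p under 0.05, grey points were not called. The members run from −7.49 (Egr4) to 2.08 (Etv5), and the other undifferentiated spermatogonia genes from −6.01 (Sohlh1) to 4.81 (Utf1).

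The genes whose 13 line means followed the mean profile of the 8 member probes most closely were Eif3i (Pearson r = 0.9861), Gle1, Get4, Fbxo16 and Pwwp3a (r = 0.9759). Each was highest in the GSC lines: Eif3i averaged 12.86 in the clones and 13.50 in the GSC lines, and Fbxo16 4.78 and 6.33 in that order. Among the members Egr4 (0.97), Bcl6b (0.94) and Lhx1 (0.93) lay closest to that mean profile, and Etv5 ran against it (−0.34). The profile is a mean of centred levels without scaling, so members with a wide range, Egr4 first, weigh most in it. It also contains each member, so the members' own correlations are partly built in.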

How the data were processed

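The deposited table holds 1 intensity per probe and array, not background-subtracted, and its detection p-value from the negative control beads (per the file headers). The submitters' processing notes name BeadStudio 3.2 together with RMA and lumi, with no role for each. The authors' deposited matrix, taken as log2 from its range, served only as an alternative.

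With limma 3.58.1 (statmod 1.5.0, R 4.3.3) the intensities went through neqc, which uses the detection p-values, an offset of 16 and quantile normalisation, to log2 levels. A probe was tested if its detection p was below 0.01 on 2 arrays or more (14517 of 25697). Symbols come from matching Entrez IDs and accessions in the deposited file to a RefSeq gene table (GRCm38.p6); 23978 probes had 1 symbol and 1719 none. The number of arrays and lines limits the precision.

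The model had 9 cell types over all 26 arrays, and the line entered as random block with 1 correlation for all probes (0.788). Comparisons among clones used 8 clone means. P-values were Benjamini-Hochberg adjusted over all 14517 probes. On simulated data the steps recovered most changed probes, all with the right sign, but in the comparison of GSC-derived clones with GSC lines the block fit also called more unchanged probes than its threshold allows, so its p-values are too small. The fit on line means is therefore given as an alternative. Where one side was undetected on all its arrays the fold is a bound, the dim side set per array at the higher of its own level and the lowest detected level. Levels of different probes were not compared.

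The members, lists and tests were chosen with earlier results of these data known. All members are named, with up to 4 higher and 4 lower called genes of each list whose lines do not overlap, and the 5 genes most alike in profile. The brightest tested probe stood for a gene. Promoters are RefSeq's, for 5 of 9 members. Alternatives changed the background correction, normalisation, offset, filter, probe choice or block, or left out arrays and lines; those by background class were chosen after seeing the data.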

Additional observations from a re-analysis of the deposited data

Results flagged for a closer look

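Lhx1 stood at 5.05 in gPSC[GSCneonatal]#2, far from the other 3 gPSC clones, which lay between 4.38 and 4.43; the gap to the nearest was 0.928 of the whole range. Lhx1 was not detected on any array of those other 3 clones, so their narrow range is set by the background. It was the 1 clone in 16 such comparisons of member levels to stand out this way. Chance alone gives about 1 in 20 per comparison, so 1 in 16 is near what chance gives. The Lhx1 level of gPSC[GSCneonatal]#2 is close to those of iPSC[MEF] (4.92) and ESC (4.93), and its line mean profile correlated at 0.9971 with iPSC[MEF].

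The dimmer Ret probe, detected too rarely to be tested, was highest by line means in the GSC lines, at 4.47 in GSC[neonatal] and 4.60 in GSC[adult], against at most 4.38 in any other line. By array the values overlapped, with 4.30 to 4.89 on the GSC arrays and 4.17 to 4.54 on the clone arrays. Nearly all of them are background values. The probe was detected on 1 of 4 GSC arrays, with a detection p of 0.00752, and on none of the other 22 arrays.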

How the results depend on the processing

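Of 52 alternatives, 26 left out an array, 13 a line and 13 changed the processing. Against the GSC lines Ret, Etv5, Bcl6b and Egr4 were called in the GSC-derived clones in all 52, Id4 and Lhx1 in 51, Gfra1 in 49 and Pou3f1 in 2, always in the same direction. Gfra1, Bcl6b and Lhx1 lie near the detection limit, and over these settings their differences ran between −1.62 and −0.20, between −2.35 and −0.34, and between −2.99 and −0.44. With line means the block fit's 7 calls in GSC-derived clones against GSC lines became 6, Id4 being lost; the same held in iPSC[GSC] and in gPSC, and in ESC with iPSC[MEF] Gfra1 was gained (6 calls in place of 5).

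Some counts of called members moved by over 1.5 times, and the cause was not tested. In ESC and iPSC[MEF] against GSC lines it was 3 on the raised-background arrays alone. In GSC-derived clones against ESC and iPSC[MEF] it was 1 with no detection filter, 1 without gPSC[GSCneonatal]#2 and iPSC[MEF], and 0 to 2 with a line left out (2 without gPSC[GSCneonatal]#2, 1 without gPSC[GSCadult]#1). In iPSC[MEF] against MEF it was 4 with no detection filter, 5 without quantile normalisation, and 2 to 4 with a line left out.

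Differences that changed sign were not called with the settings of the report. Without gPSC[GSCneonatal]#2 and iPSC[MEF], Etv5 stood at 0.10 in iPSC[GSC] against gPSC and Pou3f1 at −0.72 in ESC against GSC lines. On the raised-background arrays alone, Pou3f1 stood at −0.04 in ESC and iPSC[MEF] against GSC lines. With a line left out, Etv5 ran between −0.32 and 0.56 in GSC against MEF and between −0.32 and 0.10 in iPSC[GSC] against gPSC. Id4 ran between −0.18 and 0.67 in adult-origin against neonatal-origin clones, between −0.54 and 0.00 in GSC-derived clones against ESC and iPSC[MEF], and between −0.13 and 0.72 in iPSC[GSC] against gPSC. Pou3f1 ran between −0.12 and 1.25 in adult-origin against neonatal-origin clones, between −1.40 and 0.15 in GSC-derived clones against ESC and iPSC[MEF], between −0.90 and 0.46 in gPSC against GSC lines, and between −0.72 and 0.84 in ESC and iPSC[MEF] against GSC lines.

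With the replicate number as a block, 7 members were again called in GSC-derived clones against GSC lines and no other call changed. The deviations of same-numbered arrays correlated over 0.1 in 28 of 78 pairs of lines (−0.17 to 0.41), and 16 of 26 arrays correlated more with their own number. Among the 8 lines whose replicate 1 had a raised background these correlations were 0.08 to 0.41. Not every pair passed 0.1, so the numbers were not taken to pair the arrays. With the raised-background arrays as a block, Gfra1 was gained in ESC and iPSC[MEF] against GSC lines (6 calls in place of 5). A slide block was not run, since the headers give no slide.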
